A study of Homo sapiens with 6 samples.

Results

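NUP210, a glycoprotein of the nuclear pore membrane, and 9 further nuclear pore proteins (NDC1, POM121, NUP93, NUP155, NUP188, NUP205, NUP107, NUP153 and NUP98) were followed in SUM159 cells with and without overexpression of miR-1287-5p. All 10 had a transcript cluster, the array's unit for a gene, among the 14884 genes with a symbol here, and each had only 1. NUP210 was chosen by its measured difference between these same groups, as the ninth by positive difference of the genes whose groups did not overlap and whose unadjusted p from limma was under 0.05. Its neighbours in that order were MIR1271 (0.94 on the log2 scale) and LINC01116 (0.89), and the eleventh was MIR1224 (0.87). The difference of NUP210 is therefore given as a description with no test, and the other 9 members were taken for their place in the pore.

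The nuclear pore complex is the channel through which RNA and proteins cross the nuclear envelope. Membrane nucleoporins anchor it, the inner ring and the Y-shaped outer ring complexes form its scaffold, and nucleoporins rich in phenylalanine-glycine (FG) repeats fill the channel and reach out on both faces. NUP210 (gp210) crosses the membrane once and has most of its mass in the perinuclear lumen. In mouse, Nup210 is known for its part in muscle and neuronal differentiation, and its level differs between tissues, whereas the scaffold nucleoporins are found in all nucleated cells.

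SUM159 cells come from a triple negative breast carcinoma and grow as a mesenchymal line. Both groups carried a stable lentiviral vector with a GFP reporter, without an insert in control cells and with miR-1287-5p in overexpressing cells, and both were kept under puromycin. Each group was measured in 3 biological replicates on Affymetrix Human Gene 2.0 ST arrays. The deposited values are log2 signals summarized by robust multi-array average (RMA). Whether the replicates came from separate transductions is not given in the sources used here, so p-values measure the spread between these arrays only. Markers of this mesenchymal line were bright (5 of 5 measured above the median signal of all transcript clusters, 4.37), with vimentin (VIM) at 10.94 ± 0.11 and 10.82 ± 0.046 (SD, n = 3 arrays per group) in control and overexpressing cells. The estrogen receptor gene ESR1 (4.21 and 4.23) and the progesterone receptor gene PGR (3.70 and 3.56) lay below that median. The endothelial PECAM1 (3.57 and 3.16) and the hepatocyte ALB (3.08 and 3.30) also lay below it. Of the luminal factor genes, GATA3 lay above it in both groups, and FOXA1 below it in control and above it in overexpressing cells. The further marker genes ERBB2, PTPRC, CD3E, CDH5 and CAV1 were not analysed here. Array medians ran from 4.33 to 4.42 on the log2 scale. Precision is limited by there being 3 arrays in a group.

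The overexpressed microRNA is shown with its seed in capitals, since pairing of the seed (bases 2 to 8) with an mRNA is what a microRNA is known to repress by. The sequence is from RefSeq (GRCh38.p14, chr10:98395271-98395292, minus strand).
hsa-miR-1287-5p: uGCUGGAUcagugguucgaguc
The bases that pair with this seed read AUCCAGC in an mRNA. The mRNAs of the pore genes were not searched for them here.

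NUP210 was higher in miR-1287-5p overexpressing cells. Its log2 signal (transcript cluster 16950932) was 7.47, 7.20 and 7.30 in the control arrays 1 to 3 and 8.17, 8.27 and 8.30 in the overexpression arrays 1 to 3. The groups did not overlap, and the gap between the highest control and the lowest overexpression array was wider than the whole range within either group (0.27 over the control and 0.13 over the overexpression arrays). The group means were 7.32 ± 0.135 and 8.25 ± 0.070 (SD, n = 3 arrays per group), a difference of 0.92 on the log2 scale or 1.90-fold. Over all 14884 genes with a symbol here, this difference lay at percentile 99.9. In the fit across all transcript clusters its adjusted p was 0.381 from limma, above the threshold of 0.05. NUP210 was chosen on this same contrast, so that value is no test of it. Leaving out single arrays moved the difference between 0.86 and 1.00.

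**Figure D1:**
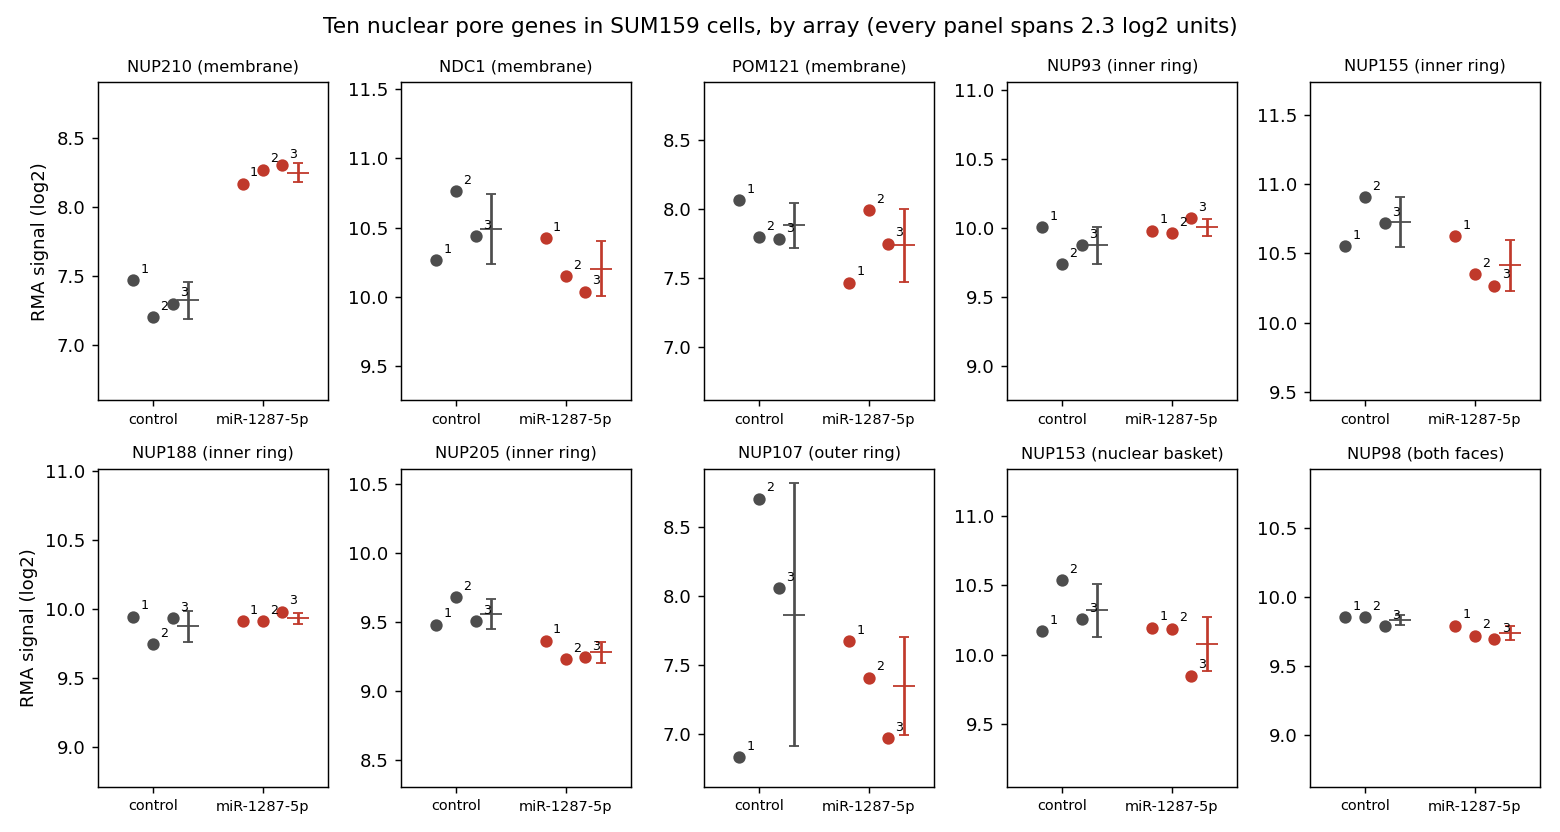
RMA log2 signal (y axis) of the 10 nuclear pore genes in each control array (grey) and each miR-1287-5p overexpression array (red). Numbers are the replicates, bars the group mean ± SD (n = 3 arrays), and every panel spans the same number of log2 units. NUP210 lies at 7.20 to 7.47 in control and 8.17 to 8.30 in overexpressing cells, while NUP107 spans 6.83 to 8.71 within the control arrays alone.

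The promoters of NUP210 and NUP107, the members at the upper and lower end of the differences, are shown to set the sequences before their starts side by side. Each run is the 250 bases before the gene's start, from RefSeq (GRCh38.p14, minus strand at chr3:13420323-13420572 and plus strand at chr12:68686728-68686977). Capitals mark matches on either strand to any of 5 motifs. The GC box was searched as GGGCGG and the CCAAT box by the letters of its name. The TATA box was searched as TATAAA. The ETS motif was searched as CCGGAAG and the NRF1 motif as GCATGCGC.
NUP210: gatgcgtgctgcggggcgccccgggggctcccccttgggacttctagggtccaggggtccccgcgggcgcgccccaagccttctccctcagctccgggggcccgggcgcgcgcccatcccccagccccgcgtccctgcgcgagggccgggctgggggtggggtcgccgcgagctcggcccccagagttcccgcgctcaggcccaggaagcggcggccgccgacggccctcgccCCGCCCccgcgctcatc
NUP107: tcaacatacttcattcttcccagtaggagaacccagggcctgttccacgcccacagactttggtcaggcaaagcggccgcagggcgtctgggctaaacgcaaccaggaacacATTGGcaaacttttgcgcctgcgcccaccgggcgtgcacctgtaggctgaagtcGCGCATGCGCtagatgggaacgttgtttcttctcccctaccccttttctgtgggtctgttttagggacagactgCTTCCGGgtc
The NUP210 window had 80.8% G or C and 33 CpG dinucleotides, against 57.2% and 14 for NUP107, and it was the richest in G and C of the 10 members (54.0% to 80.8%, taking the highest where a gene has several starts). The median over 27305 genes was 59.2%. NUP210 held 1 GC box and none of the other 4 motifs. NUP107 held 1 CCAAT box, 1 ETS motif and 2 overlapping NRF1 matches, which lie on opposite strands of the same run of bases. A GC box was found in 7 of the 10 members and in 46.2% of all genes, a CCAAT box in 4 of 10 and 37.0%, an ETS motif in 2 of 10 and 10.2%, a TATA box in 1 of 10 and 13.0%, and an NRF1 motif in 1 of 10 (NUP107) and 3.22%. A gene with several starts was counted if any of its windows held the motif. The TATA box, found in NUP93, lay in another window than the GC box of that gene. These are matches of letters only.

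The other membrane nucleoporins had overlapping groups, as did 13085 of the 14884 genes with a symbol here. NDC1, a multi-spanning membrane protein needed for pore assembly, had log2 signals of 10.26, 10.77 and 10.44 in control and 10.42, 10.15 and 10.04 in overexpressing cells. The groups overlapped, since control array 1 was lower than overexpression array 1. The difference was −0.29 (95% interval −0.71 to 0.13, adjusted p = 0.871 from limma), and it was −0.15 without control array 2. POM121, a membrane protein with FG repeats on the pore side, had log2 signals of 8.06, 7.79 and 7.78 in control and 7.47, 7.99 and 7.75 in overexpressing cells. Its overexpression arrays lay on both sides of the control arrays 2 and 3, and the difference was −0.15 (95% interval −0.55 to 0.26, adjusted p = 0.892 from limma). That value rested on single arrays, since it was −0.011 without overexpression array 1, −0.053 without control array 1 and −0.27 without overexpression array 2. POM121C, a near-identical copy whose transcripts the probes may not separate from those of POM121, had a difference of 0.026 (95% interval −0.29 to 0.34). NUP210L, the testis-expressed relative of NUP210, had group means of 3.47 and 3.58, below the median signal of all transcript clusters.

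Within the inner ring the members went both ways, and none of them passed the threshold, which 0.00373% of all transcript clusters did. NUP93, which holds the inner ring together, had log2 signals of 10.01, 9.74 and 9.88 in control and 9.98, 9.96 and 10.07 in overexpressing cells. The difference was 0.13 (95% interval −0.18 to 0.44, adjusted p = 0.881 from limma), with control array 1 above overexpression arrays 1 and 2, and it was 0.20 without control array 1 and 0.063 without control array 2. NUP188, a large scaffold protein, lay at 9.94, 9.74 and 9.93 in control and 9.91, 9.91 and 9.98 in overexpressing cells. Its difference of 0.059 (95% interval −0.24 to 0.35, adjusted p = 0.937 from limma) rested on control array 2, and it was −0.0059 without that array.
NUP205, a scaffold protein related to NUP188, had log2 signals of 9.48, 9.68 and 9.51 in control and 9.36, 9.23 and 9.24 in overexpressing cells. It was the only member beside NUP210 whose groups did not overlap, with a difference of −0.28 (95% interval −0.58 to 0.023, adjusted p = 0.871 from limma). Over all transcript clusters, 4.33% had every overexpression array below every control array and 6.88% above. NUP155, which links the inner ring to the membrane, lay at 10.55, 10.91 and 10.72 in control and 10.62, 10.35 and 10.27 in overexpressing cells. The groups overlapped through control array 1, and the difference was −0.31 (95% interval −0.68 to 0.060, adjusted p = 0.871 from limma). NUP35, the smallest inner ring protein, had a difference of −0.34 (95% interval −1.04 to 0.36).

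NUP107, a subunit of the outer ring Y complex, had the widest spread of the 10 members. Its log2 signal was 6.83, 8.71 and 8.06 in control and 7.67, 7.41 and 6.97 in overexpressing cells. Both the lowest and the highest of the 6 arrays were control arrays, and the overexpression arrays lay between them. The difference of −0.51 (95% interval −1.56 to 0.54, adjusted p = 0.879 from limma) was smaller than the range over the control arrays, 1.87. It was −1.03 without control array 1 and −0.093 without control array 2, so its size rested on these 2 arrays.
Of the 8 measured outer ring genes 7 had a difference below 0, with a median of −0.30, against 48% of all genes with a symbol here. Control array 2 was the highest of the 6 arrays in 7 of the 8, against 29.8% of the genes above the median signal. None of the 8 passed the threshold, which 0.00373% of all transcript clusters did. NUP160 did not overlap between the groups, with all overexpression arrays lower (9.06 ± 0.16 in control against 8.69 ± 0.22, SD, n = 3 arrays per group), with a difference of −0.37 (95% interval −0.75 to 0.011). NUP133, which tethers the Y complex to curved membrane, had −0.38 (95% interval −0.83 to 0.070). AHCTF1 (ELYS), which brings the Y complex to chromatin after mitosis, ranged from 7.70 to 9.78 within the control arrays, and NUP85 was the outer ring gene with a difference above 0 (0.12, 95% interval −0.18 to 0.43).

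None of the measured nucleoporins of the pore's faces passed the adjusted threshold, which 0.00373% of all transcript clusters did. NUP153, an FG nucleoporin of the nuclear basket, had log2 signals of 10.17, 10.54 and 10.26 in control and 10.19, 10.19 and 9.85 in overexpressing cells. The difference was −0.24 (95% interval −0.63 to 0.14, adjusted p = 0.871 from limma), with overexpression array 3 the lowest and control array 2 the highest. Without overexpression array 3 it was −0.13 and without control array 2 −0.14. NUP98, whose GLFG repeats help to form the barrier and whose transcript also encodes the outer ring protein NUP96, lay at 9.85, 9.85 and 9.79 in control and 9.79, 9.72 and 9.70 in overexpressing cells. It had the smallest range over the control arrays among the 10 members (0.067) and a difference of −0.095 (95% interval −0.37 to 0.18, adjusted p = 0.894 from limma).
On the cytoplasmic face, NUP88 was lower in every overexpression array (8.96, 8.95 and 8.83 in control against 8.77, 8.51 and 8.47). Its difference was −0.33 (95% interval −0.65 to −0.0048), at an unadjusted p = 0.0475 and an adjusted p = 0.871 from limma. NUP214, the partner of NUP88, had a difference of 0.10 (95% interval −0.19 to 0.39). NUP42 had −0.30 and the helicase gene DDX19A, whose product releases mRNA on the cytoplasmic side, 0.19, neither at an unadjusted p under 0.05.

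Seen together, the 9 other members had a median log2 difference of −0.24 and a range from −0.51 to 0.13, against a median of 0.011 over all genes with a symbol here. Of these 9, 7 lay below 0 and 2 above, where 48% of all genes with a symbol here lay below 0. At an adjusted p under 0.05 from limma, 0 passed (0.00373% over all transcript clusters). At an unadjusted p under 0.05, 0 passed from limma, where 2.44% of all transcript clusters were lower and 2.96% higher. By the methods' t-test 1 passed (NUP205), where 2.3% were lower and 3.43% higher.
The lists of membrane, inner ring, outer ring, channel, basket and cytoplasmic genes gave 31 measured pore genes beside NUP210, with SEC13, NUP62, TPR and AAAS not analysed here. Their differences ranged from −0.51 to 0.20. At an unadjusted p under 0.05 from limma, 1 was lower (NUP88) and 0 were higher, where 2.44% of all transcript clusters were lower and 2.96% higher, so the count of lower genes was near the background. In 3 genes (NUP205, NUP160 and NUP88) every overexpression array was below every control array, and in 1 (DDX19A) above, against 4.33% and 6.88% of all transcript clusters. Without control array 1, 7 pore genes were lower at an unadjusted p under 0.05 and, beside NUP210, 0 higher, where 7.06% of all transcript clusters were lower and 5.79% higher. The 7 were NUP35, NUP107, NUP133, AHCTF1, NUP58, NUP50 and RANBP2, and without control array 2 none of the 31 passed.

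**Figure D2:**
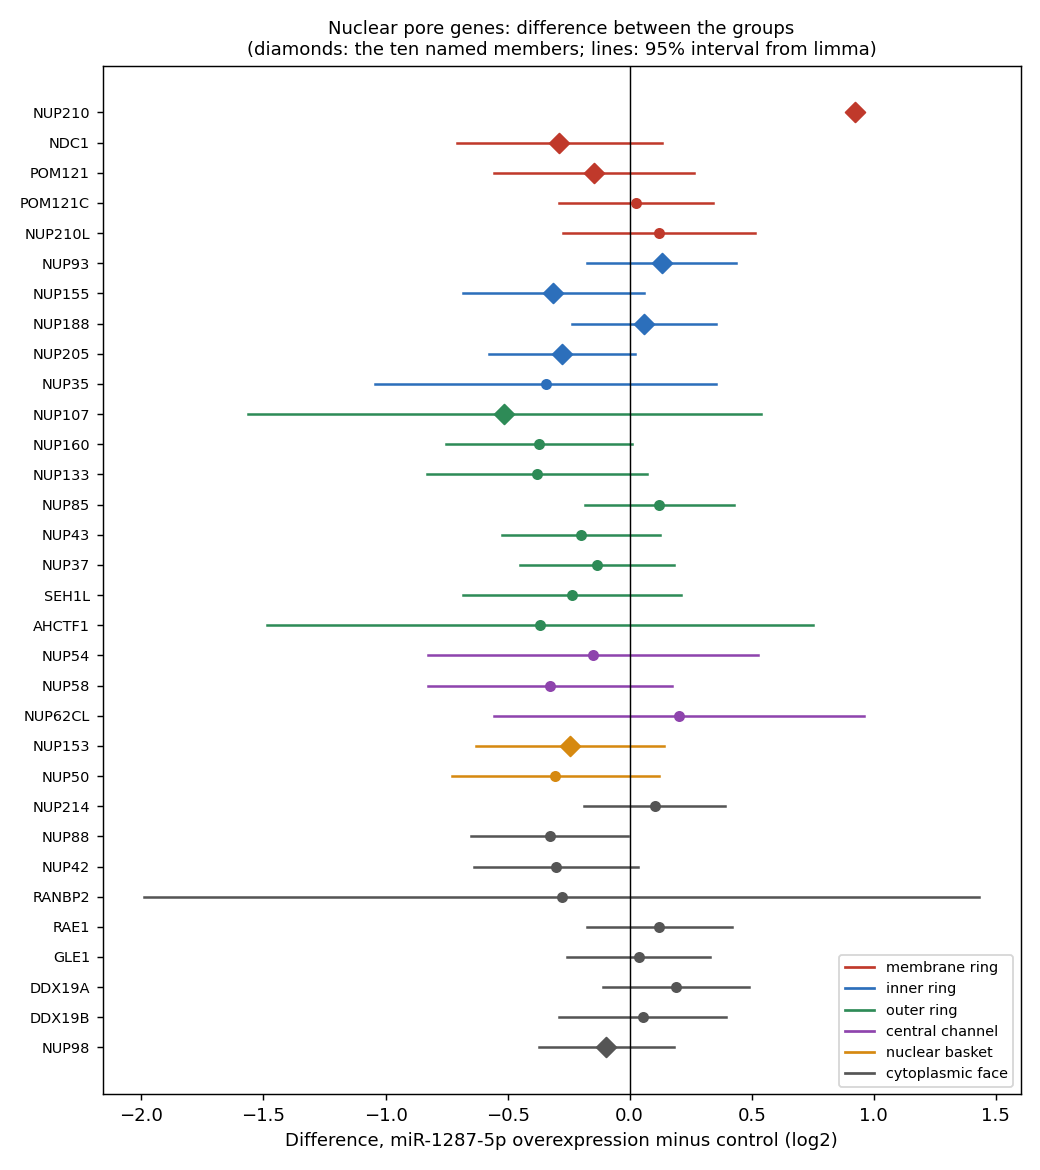
Difference in log2 signal between miR-1287-5p overexpressing and control cells (x axis) for NUP210 and the 31 other measured nuclear pore genes, coloured by their place in the pore. Diamonds mark the 10 members, lines the 95% interval from limma, which is not drawn for NUP210. NUP210 lies at 0.92, and the other points lie between −0.51 and 0.20.

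Much of the variation of the pore genes ran along the control arrays. Control array 2 was the highest of the 6 arrays in 18 of the 31 pore genes other than NUP210, against 29.8% of the 10348 genes above the median signal, and the lowest in 7, against 35.7%. The first set held NDC1, NUP155, NUP205, NUP107 and NUP153, and the second NUP93, NUP188, NUP85, NUP214, RAE1, GLE1 and DDX19A. In the first set 17 of 18 differences lay below 0 (median −0.29) and in the second 7 of 7 above 0 (median 0.12). Control array 2 is part of the control mean, so this split sets these directions in part. Without that array 14 of the 18 lay below 0 (median −0.14) and 5 of the 7 above (median 0.056).
RANBP2, the large cytoplasmic filament protein, whose near-identical RGPD copies the probes may not separate, had the widest spread, with log2 signals of 5.31, 8.46 and 7.35 in control and 7.27, 6.83 and 6.18 in overexpressing cells. Its range over the control arrays (3.15) was far wider than its difference (−0.28). In 24 of the 31 genes the difference was smaller than the range over the control arrays, as it was in 85.7% of all genes with a symbol here. The control arrays of NUP210 were ordered with array 1 the highest and array 2 the lowest. So were those of NUP93, NUP188, NUP85, NUP214, RAE1, GLE1, DDX19A and NUP210L. What makes control arrays 1 and 2 differ was not tested.

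**Figure D3:**
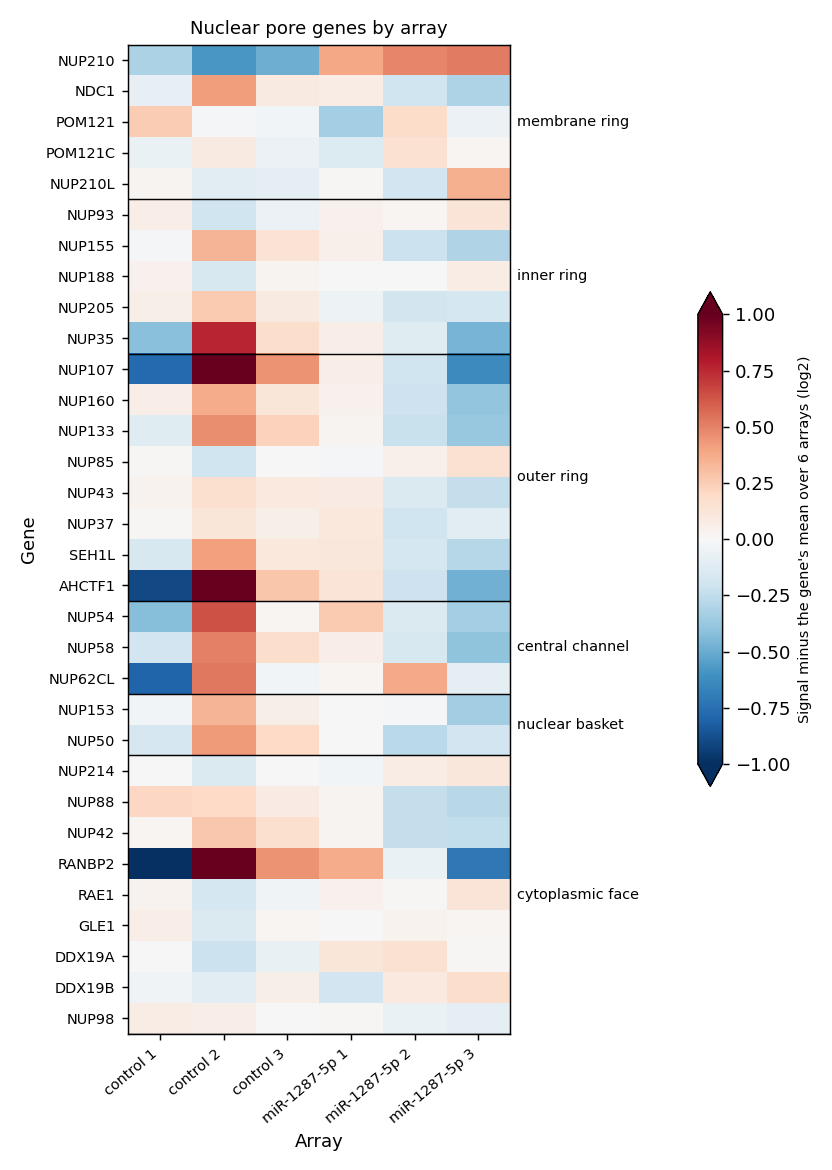
Log2 signal of each nuclear pore gene (rows, grouped by place in the pore) minus its mean over the 6 arrays (columns), with colours saturating at the ends of the scale. Control array 2 is the highest array in 18 genes, NUP107, AHCTF1 and RANBP2 among them, and NUP210 is the row in which all control arrays are low and all overexpression arrays high by the most.

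**Figure D4:**
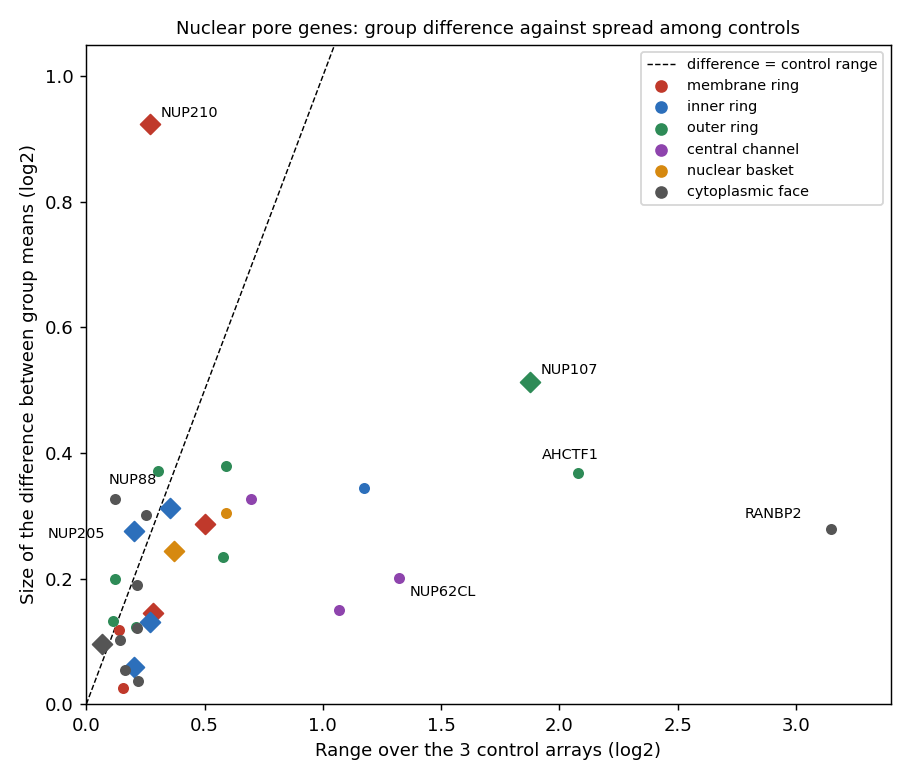
Size of the difference between the group means (y axis, log2) against the range over the 3 control arrays (x axis, log2) for NUP210 and the 31 other measured nuclear pore genes, with diamonds for the 10 members. On the dashed line both are equal. NUP210 has a difference of 0.92 over a control range of 0.27, and NUP107 0.51 over 1.87.

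Each member was also set against its own control mean, array by array. NUP210 stood 0.85, 0.95 and 0.98 above its control mean in the overexpression arrays 1 to 3. The median of the other 9 stood at −0.10, −0.13 and −0.31 in the same arrays, and their highest was 0.11, 0.11 and 0.20. In the control arrays 1 to 3 NUP210 stood at 0.15, −0.12 and −0.023 and the median of the other 9 at −0.076, 0.13 and −0.044.

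Genes of transport through the pore had no call at an adjusted p under 0.05, which 0.00373% of all transcript clusters had. Among 16 measured import receptors, 11 had a difference below 0 (median −0.22). KPNA1, an importin alpha, was lower at an unadjusted p = 0.0307 (adjusted p = 0.871) from limma, with a difference of −0.35. It was the only 1 of the 16 at an unadjusted p under 0.05, where 2.44% of all transcript clusters were lower. IPO8 had −0.50, KPNA4 −0.41 and IPO4 0.25, none at an unadjusted p under 0.05, and KPNB1, the importin beta that most import depends on, had −0.24. Control array 2 was the highest array in 11 of these 16 genes, against 29.8% of the genes above the median signal. The 6 measured export receptors ranged from −0.30 (CSE1L) to 0.11 (XPO6), and 0 of them had an unadjusted p under 0.05 by limma or the methods' t-test. Of the 7 measured genes of the Ran cycle and mRNA export, 6 lay above 0 (median 0.085), with RANBP3 at 0.22 and NXT1 at 0.18. In 6 of the 7, control array 2 was the lowest array, against 35.7% of the genes above the median signal. At an unadjusted p under 0.05, 0 passed from limma, where 2.44% of all transcript clusters were lower and 2.96% higher. By the methods' t-test 1 passed (NUTF2), where 2.3% were lower and 3.43% higher.
The nuclear envelope and lamina, in which the pores sit, were divided, with 7 of 14 measured genes below 0 and 7 above. Lamin B1 (LMNB1) was lower in every overexpression array (difference −0.28, 95% interval −0.60 to 0.044), and lamin A/C (LMNA) higher (0.22, 95% interval −0.091 to 0.52), as was LEMD2 (0.14). Of all transcript clusters, 4.33% had every overexpression array below every control array and 6.88% above. SUN2 of the nuclear-cytoskeletal linker had a difference of 0.25 and the inner membrane protein gene LEMD3 −0.40, both with overlapping groups. None of the 14 had an unadjusted p under 0.05 by limma or by the methods' t-test. Nup210 is known to act with MEF2C and TRIP6 in mouse and zebrafish muscle. Of the 4 measured genes of the MEF2 factors and TRIP6, 1 was higher at an unadjusted p under 0.05 from limma, MEF2C, with all overexpression arrays above all control arrays. Over all transcript clusters, 2.96% were higher at that threshold and 6.88% had every overexpression array above every control array. The difference of MEF2C was 0.39 (adjusted p = 0.871 from limma). MEF2C lay below the median signal in both groups (2.85 and 3.24), and another of its transcript clusters had −0.33. MEF2A had −0.22, MEF2D 0.17 and TRIP6 0.23, with overlapping groups. Of the 13 proliferation genes, 8 lay below 0 (median −0.042), with TOP2A at −0.41, BUB1 −0.39, MKI67 −0.25 and MCM5 0.24. In all 13 the difference was smaller than the range over the control arrays (2.42 for TOP2A), as in 85.7% of all genes with a symbol here. All 13 overlapped between the groups, as did 13085 of the 14884 genes with a symbol here. None of the 13 had an unadjusted p under 0.05 by limma or the methods' t-test. The limma shares over all transcript clusters were 2.44% lower and 2.96% higher.

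The genes beside NUP210 on chromosome 3 had no call at an adjusted p under 0.05, which 0.00373% of all transcript clusters had. The 5 nearest measured genes on each side had differences from −0.57 to 0.091, and 9 of the 10 overlapped between the groups, near the share over all genes with a symbol here (13085 of 14884). IQSEC1 and HDAC11, the direct measured neighbours, had −0.12 (95% interval −0.48 to 0.23) and −0.11 (95% interval −0.41 to 0.19). TMEM40 was the exception, with log2 signals of 5.59, 5.27 and 5.46 in control and 4.82, 4.68 and 5.10 in overexpressing cells. It had a difference of −0.57 (95% interval −0.95 to −0.19), opposite in direction to NUP210, at an unadjusted p = 0.00884 (adjusted p = 0.865) from limma. TMEM43, itself a nuclear envelope gene, had 0.038.

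**Figure D5:**
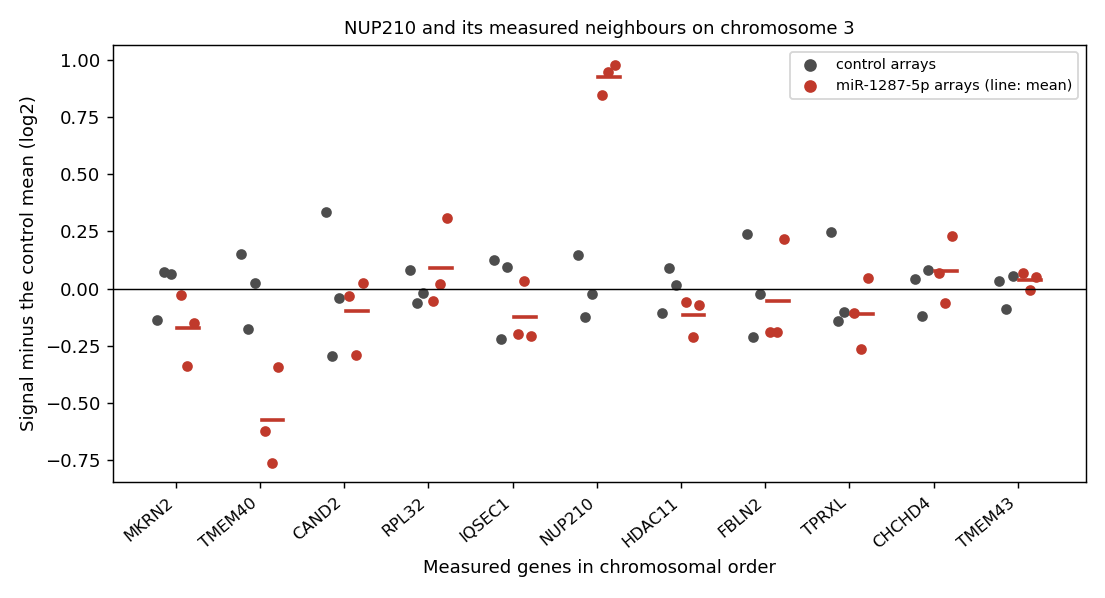
Log2 signal minus the control mean (y axis) of NUP210 and its 5 nearest measured genes on each side in chromosomal order (x axis), with control arrays in grey, miR-1287-5p overexpression arrays in red and the overexpression mean as a line. NUP210 stands at 0.92, TMEM40 at −0.57, and the other genes between −0.17 and 0.091.

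The genes whose values over the 6 arrays were most like those of NUP210 were CADM3, a cell adhesion molecule, ANPEP, the aminopeptidase CD13, the homeobox gene HLX, the ephrin EFNA3 and SPRY2, an inhibitor of receptor tyrosine kinase signalling. Their differences between the groups were 1.04, 0.31, 0.38, 0.40 and 0.31. Likeness was measured as the correlation over 6 arrays, which lay between 0.992 and 0.994 for these 5 of the 10347 genes searched, and 67 genes lay above 0.95. The 6 points hold 2 groups, so any gene that separates them cleanly scores high. Among the other 9 members the same measure was 0.73 for NUP93 and 0.52 for NUP188, and it ran from −0.94 for NUP205 to −0.25 for POM121 in the rest.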

How the data were processed

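RNA of 3 miR-1287-5p overexpressing and 3 control replicates was measured on Affymetrix arrays. The deposited values are log2 signals that the authors obtained with RMA in Partek 6.6, a method that corrects background, equalizes the distributions of the arrays by quantiles and fits the probes by median polish. A filtering step is named without details, and the genome build of the annotation is not given in the sources used here.

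Symbols came from the platform's gene table (16098 of 53617 transcript clusters) and were checked by gene ID against RefSeq, with 0 changed. A gene with more than 1 transcript cluster was represented by its brightest. All transcript clusters were compared with limma 3.58.1 in R 4.3.3 (lmFit, eBayes, two-sided, Benjamini-Hochberg, threshold 0.05). RMA is known to compress differences of dim genes. The members and lists were chosen with earlier results of these data known. Of the other lists, up to 4 members with the smallest p were named, and further ones (NUP85, NUP88, NUP214, RANBP2, AHCTF1, XPO6, CSE1L, KPNB1, TOP2A, LEMD2 and others) for their role or after their values were seen. GC, CpG and motif counts were made in Python. Alternatives were an intensity trend, the replicate block, the methods' unpaired t-test, centred array medians, cyclic loess, filters, array weights and each array left out. The fits were tested on simulated data.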

Additional observations from a re-analysis of the deposited data

How the results depend on the processing

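The difference of NUP210 lay between 0.86 and 1.00 over 11 alternatives and the median of the other 9 members between −0.31 and −0.14 over 12. The count of transcript clusters at an adjusted p under 0.05 was 2 in limma, 0 by the methods' t-test, 0 with the replicate number as a block, 1 after cyclic loess, 5 with dim transcript clusters left out, 25 with array weights and 0 with any array left out. The count of pore genes at an unadjusted p under 0.05, NUP210 included, was 2 in limma and 1 with the replicate number as a block. It was 5 with an intensity trend (4 of them lower, against 2.59% of all transcript clusters). With array weights it was 10 (9 of them lower, where 9.62% of all transcript clusters were lower and 12.5% higher). With each array left out it was 1 to 8 (4 lower without overexpression array 1, against 2.60%). NUP210 was chosen on this contrast and was the 1 higher gene in each of these counts. A count of 1 therefore held no other pore gene. Array weights put 7.91 on control array 3 against 0.366 and 0.514 on control arrays 1 and 2. NUP188 turned from 0.059 to −0.0059 without control array 2, with a range of −0.0059 to 0.094 over the arrays left out, and the other 8 members kept their sign in all 15 alternatives, with 0 of them at an adjusted p under 0.05 (lowest 0.190, NUP155 with array weights). The median of all 32 pore genes, chosen after the data were seen, was −0.17, −0.30 without overexpression array 1 and between −0.30 and −0.068 over the arrays left out. Deviations of arrays with the same replicate number correlated at −0.47, −0.0018 and −0.081 over 26808 brighter transcript clusters, which showed no pairing by number. Deviations within groups of 3 arrays cannot tell whether cultures with the same number were handled together. Each member has 1 transcript cluster and lies above the median signal, so averaging clusters or leaving out dim members changed nothing. The number of arrays limits the precision, and the depth of an array cannot be stated.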
